A study of Mus musculus with 6 samples.

Results

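Mitosis and spindle checkpoint genes are described here in common myeloid progenitors (CMP), the marrow stage from which both granulocyte-monocyte and megakaryocyte-erythrocyte progenitors arise. The genes were chosen by name: 40 were listed, and 39 had a probe set (a group of array probes for a transcript) with a single gene symbol, of 18193 genes measured in all. Ccnb1, the cyclin B1 gene, is not analysed here. For each gene the probe set with the highest mean over the arrays was used.

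CMP from leg and hip bones of C57BL6 mice had been sorted by flow cytometry on reactive oxygen species (ROS), read with the probe H2-DCFDA, which becomes fluorescent on oxidation. Each sorted fraction held a minority of all CMP. The 2 groups were high-ROS CMP and low-ROS CMP, with 3 one-colour arrays each. Both came from the same strain and marrow source, and no other treatment or allele is named for either. The series asks what ROS do in the step from CMP to megakaryocyte-erythrocyte progenitors. The sources used here give neither the mice's age nor the surface gate. They also do not say whether replicates came from separate mice or sorts, so the p-values rest on a spread between arrays that could be technical.

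In mitosis the kinase Cdk1, switched on by cyclins, drives entry, and the kinetochores that form on centromeres attach each chromosome to the spindle. The spindle checkpoint holds back the ubiquitin ligase APC/C until all kinetochores are attached. The ligase then has securin and cyclin B destroyed, sister chromatids part and the cell divides. Transcripts of these genes build up together late in the cell cycle, so in a mixture of cells their level follows the share of dividing cells. In such bulk samples, fewer dividing cells and less RNA per dividing cell cannot be told apart.

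Promoters of these genes are known for a cell cycle element called CHR and for CCAAT boxes, and both were common here. RefSeq promoter windows (build GRCm38.p6) of 300 bases, 250 before to 50 after a gene's start, were at hand for 33 of the 39 genes. CHR letters were searched as TTTGAA or TTCGAA and CCAAT boxes as CCAAT, each on both strands. CHR letters stood in the window of 25 of 33 members (75.8%), against 2514 of 14367 genes of the arrays with such a window (17.5%). From 100 bases before the start to the window's end they stood in 24 of 33 members (72.7%), against 1058 of 14367 genes (7.36%). A CCAAT box was found in 25 of 33 members (75.8%) and in 6039 of 14367 genes (42.0%), and at least 2 of them in 16 members (48.5%) and in 2141 genes (14.9%). CHR letters and a CCAAT box shared a window in 22 members (66.7%) and in 1013 genes (7.05%). A match of letters is a description and not a shown binding site, and the motifs did not overlap in the windows printed here.

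The windows of 6 members are shown in lower case with CHR letters and CCAAT boxes of either strand in capitals. Bub1, Cenpf and Cdc20 had higher signals on every high-ROS array, and Cdk1, Ccnb2 and Kif11 had their lowest signal on high-ROS replicate 3.
Bub1 chr2:127831810-127832109 (minus strand): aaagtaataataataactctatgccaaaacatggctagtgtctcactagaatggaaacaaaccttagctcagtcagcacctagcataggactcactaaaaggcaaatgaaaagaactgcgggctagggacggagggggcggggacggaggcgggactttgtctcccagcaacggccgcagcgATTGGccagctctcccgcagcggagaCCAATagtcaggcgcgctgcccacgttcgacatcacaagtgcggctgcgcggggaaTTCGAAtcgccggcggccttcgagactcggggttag
Cenpf chr1:189688037-189688336 (minus strand): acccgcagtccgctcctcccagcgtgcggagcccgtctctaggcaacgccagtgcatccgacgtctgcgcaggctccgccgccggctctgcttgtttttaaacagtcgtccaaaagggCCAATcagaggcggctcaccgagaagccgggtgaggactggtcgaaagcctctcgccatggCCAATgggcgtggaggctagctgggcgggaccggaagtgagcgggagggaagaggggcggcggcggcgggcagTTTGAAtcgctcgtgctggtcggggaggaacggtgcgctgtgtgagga
Cdc20 chr4:118437294-118437593 (minus strand): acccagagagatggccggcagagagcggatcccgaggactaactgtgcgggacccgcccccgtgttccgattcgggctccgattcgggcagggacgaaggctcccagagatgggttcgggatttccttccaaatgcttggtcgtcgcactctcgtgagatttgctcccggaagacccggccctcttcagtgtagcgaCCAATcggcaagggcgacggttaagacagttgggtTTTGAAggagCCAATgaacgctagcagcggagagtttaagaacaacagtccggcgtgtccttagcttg
Cdk1 chr10:69352863-69353162 (minus strand): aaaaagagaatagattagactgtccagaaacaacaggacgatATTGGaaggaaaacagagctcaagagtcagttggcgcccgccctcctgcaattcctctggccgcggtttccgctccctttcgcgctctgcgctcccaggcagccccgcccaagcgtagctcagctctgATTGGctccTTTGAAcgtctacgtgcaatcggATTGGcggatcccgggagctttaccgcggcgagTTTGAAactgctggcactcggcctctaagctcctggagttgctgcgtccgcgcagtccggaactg
Ccnb2 chr9:70421505-70421804 (minus strand): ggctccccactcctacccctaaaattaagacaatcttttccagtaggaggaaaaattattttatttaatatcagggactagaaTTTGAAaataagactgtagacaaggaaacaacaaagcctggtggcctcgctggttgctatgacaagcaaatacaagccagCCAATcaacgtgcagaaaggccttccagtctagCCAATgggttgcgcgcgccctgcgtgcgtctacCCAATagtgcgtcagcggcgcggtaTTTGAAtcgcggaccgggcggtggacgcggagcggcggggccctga
Kif11 chr19:37376132-37376431 (plus strand): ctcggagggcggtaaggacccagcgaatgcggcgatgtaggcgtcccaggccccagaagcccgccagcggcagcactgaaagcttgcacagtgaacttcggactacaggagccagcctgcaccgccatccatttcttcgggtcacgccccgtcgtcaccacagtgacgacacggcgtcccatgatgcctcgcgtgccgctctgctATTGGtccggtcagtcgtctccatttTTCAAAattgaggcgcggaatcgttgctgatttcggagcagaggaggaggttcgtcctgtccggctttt
All 6 carried both elements, unlike Nusap1, which held neither, and Anln and Kif2c, which held no CCAAT box. In the 6, as in most members, a CHR stood close to the start. Cdk1 and Ccnb2 held 2 CHR matches and 3 CCAAT boxes each. Among the 7 members with a window and an unadjusted p under 0.05 for the group difference, 6 held CHR letters. Of the other 26, 19 did. A CCAAT box stood in 4 of the 7 and in 21 of the 26.

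Median signals were 40.9 to 41.5 on high-ROS arrays and 40.4 to 42.5 on low-ROS arrays, but high-ROS replicate 3 stood apart. On the first principal component of all genes it lay at -36.6, against -5.20 and 0.252 for the other high-ROS arrays and 25.8, 7.14 and 8.61 for low-ROS replicates 1 to 3, and its trimmed mean signal of 181 was the lowest of 6. The 3′ to 5′ ratio of Gapdh control signal is a measure of RNA integrity and labelling. It was 3.57, 2.997 and 4.53 in high-ROS replicates 1 to 3 and 3.19, 2.84 and 2.54 in low-ROS replicates 1 to 3. High-ROS replicate 3 was thus also highest there. The same ratio of the beta-actin control differed little, with 1.03, 1.05 and 1.06 in high-ROS and 0.976, 1.02 and 1.05 in low-ROS CMP. As a check of the label, the 6 progenitor markers (Kit, Cd34, Fcgr3, Mpo, Elane and Myb) were far above the array median, with sums of 15016 to 16418 in high-ROS CMP and 14872 to 15488 in low-ROS CMP. The 7 markers of mature neutrophils were bright as well, summing to 48491 to 49617 in high-ROS and 48625 to 51528 in low-ROS CMP, with S100a8 at 12421 to 12871 and 12273 to 13258. The marker signals therefore do not settle how pure the sorted CMP were. Sums of 6 megakaryocyte markers were 741 to 992 in high-ROS and 1323 to 1333 in low-ROS CMP. Most of that sum was Pf4, at 534 to 752 in high-ROS and 1059.6 to 1135 in low-ROS CMP. The dim Itga2b was also separated in this direction, at 25.9 to 35.1 in high-ROS and 47.9 to 73.8 in low-ROS CMP. Gp9 had a negative log2 fold change too (-0.19), but its groups overlapped. Gp1bb, Ppbp and Tubb1, near background, had a higher mean in high-ROS CMP. Sums of 5 erythroid markers were 7688 to 8943 in high-ROS and 9559 to 9894 in low-ROS CMP, mostly from Slc4a1 (4349.6 to 5366 and 6066 to 6161) and Tfrc, with Hba-a1 near 0 in both (8.43 and 3.49 at most). Sums of 5 macrophage and monocyte markers were 3719 to 4122 and 2921 to 3708, of 4 B cell markers 1857 to 2264 and 1907 to 2457, and of 5 T and NK cell markers 1179 to 1321 and 1170.2 to 1287. The part of these cells in the results on mitosis genes was not tested.

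No mitosis gene passed the test between the groups, while 28 of 39 (71.8%) had a higher mean in high-ROS CMP, as did 54% of all genes. With limma and Benjamini-Hochberg adjustment over all genes, 0 of 39 were called at 0.05, against 0.055% of all genes (0.0165% higher and 0.0385% lower). The smallest adjusted p was 0.456, for Bub1. An unadjusted p under 0.05 was reached by 9 members (23.1%) with a higher mean and 0 with a lower one, against 4.44% and 3.37% of all genes, or 7.81% in either direction. That count of 9, against 808 of all genes, changed when 1 array was left out. It was 5 (661 of all genes), 5 (950) and 7 (638) without high-ROS replicates 1, 2 and 3. Without low-ROS replicates 1, 2 and 3 it was 3 (677), 8 (831) and 4 (549). The median log2 fold change was 0.11 over the members, with quartiles of -0.01 and 0.25, and 0.02 over all genes. High-ROS arrays lay wholly above low-ROS arrays for 9 members (23.1%) and wholly below for 0, against 8.04% and 5.32% of all genes, or 13.4% in either direction. The excess in higher means and in the median was gone without high-ROS replicate 2, where 21 of 39 members (53.8%) had a higher mean, against 53.9% of all genes, and the medians were 0.017 and 0.025. Leaving out low-ROS replicate 1 instead gave 26 members (66.7%) against 55.7%, and medians of 0.043 and 0.031. The members were read on the same arrays, so they are not independent observations. They were also brighter than most genes. A fit of only the 9096 genes above the median level gave an unadjusted p under 0.05 for 10.2% in either direction. In that fit 7 of 38 members had one, all with a higher mean, and 9 members had separate groups, against 16.4% of its genes.

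**Figure D1:**
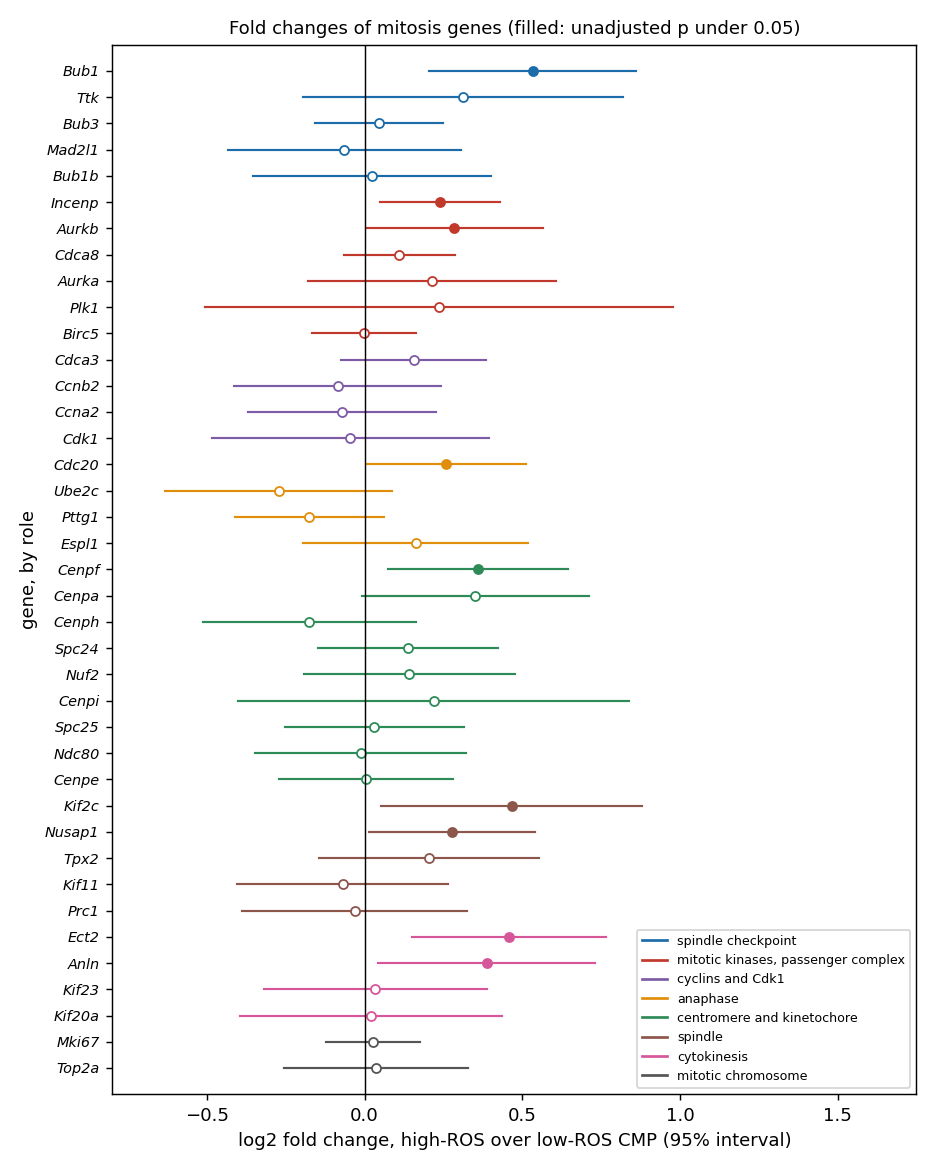
Log2 fold change of each mitosis gene, high-ROS over low-ROS CMP, as a point with its 95% interval from limma (3 arrays per group), ordered by role. Filled points, all right of 0, mark the 9 genes with an unadjusted p under 0.05, and the 30 open ones have intervals that include 0.

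Among the 5 spindle checkpoint genes Bub1 differed most. Bub1, a checkpoint kinase (Entrez Gene 12235), had signals of 541, 543 and 679 in high-ROS replicates 1 to 3 and 375, 453 and 374 in low-ROS replicates 1 to 3. Every high-ROS array was above every low-ROS array. Its mean was 588 ± 79.3 in high-ROS and 401 ± 45.8 in low-ROS CMP (SD, n = 3 each), a log2 fold change of 0.53 (SE 0.149, limma unadjusted p = 0.00433, adjusted p = 0.456). Its dimmer probe set pointed the same way, with 71.9, 71.2 and 63.4 in high-ROS and 21.7, 39.2 and 47.3 in low-ROS CMP (log2 fold change 0.74, SE 0.243). Ttk, the kinase that starts checkpoint signalling, had 206, 253 and 189 in high-ROS and 115, 208 and 202 in low-ROS CMP, and the groups overlapped. Bub1b, Bub3 and Mad2l1, which form the complex that binds Cdc20, had log2 fold changes of 0.02, 0.05 and -0.06, each smaller than its SE (0.172, 0.0917 and 0.168).

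The chromosomal passenger complex is Aurkb with Incenp, Birc5 (survivin) and Cdca8 (borealin), and it corrects faulty attachments. Incenp (16319), its scaffold, had 3620.1, 3494 and 4009.5 in high-ROS and 3024, 3299 and 3083 in low-ROS CMP, without overlap. The log2 fold change was 0.24 (SE 0.0858, limma unadjusted p = 0.0175, adjusted p = 0.568). All 5 Incenp probe sets had positive values. The next brightest overlapped, with 617, 616 and 436 in high-ROS and 446, 539 and 527 in low-ROS CMP (0.13, SE 0.164). Aurkb (20877), the kinase of the complex, had 749, 794 and 866 in high-ROS and 606, 737 and 629 in low-ROS CMP. The groups did not overlap, although high-ROS replicate 1 and low-ROS replicate 2 were close (log2 fold change 0.29, SE 0.127, limma unadjusted p = 0.0464, adjusted p = 0.637). Its second probe set was also separated, with 594, 623 and 692 in high-ROS and 439, 565 and 465 in low-ROS CMP. Of the other subunits, Cdca8 had a log2 fold change of 0.11 (SE 0.0798), with overlap, and Birc5 0.00 (95% interval -0.16 to 0.16). Aurka, the spindle pole kinase, had 0.21 (SE 0.179), again with overlapping groups. Plk1, which acts throughout mitosis, was near background in part of the arrays, with 62.1, 86.4 and 45.5 in high-ROS and 22.6, 64.5 and 80.8 in low-ROS CMP, and its 95% interval of -0.51 to 0.98 spans 0 widely.

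Cdk1 and its cyclins differed little between the group means but much between high-ROS arrays. Cdk1 (12534) had 1011, 1365 and 756 in high-ROS and 846, 1142 and 1189 in low-ROS CMP, so both the highest and the lowest array were high-ROS ones. Its log2 fold change was -0.05 (SE 0.200, 95% interval -0.48 to 0.39). Ccnb2 (cyclin B2) had 1303, 1515 and 981 in high-ROS and 1231, 1336 and 1409 in low-ROS CMP. Ccna2 (cyclin A2) had 1551, 1810.3 and 1258 in high-ROS and 1479, 1764 and 1572 in low-ROS CMP. On these probe sets the groups overlapped for both cyclins, and replicate 3 was the lowest high-ROS array. A second Ccna2 probe set had 1154, 1289 and 1237 in high-ROS and 759, 1094 and 1131 in low-ROS CMP, where the groups did not overlap and replicate 3 was not the lowest high-ROS array. Cdca3, which helps to trigger mitotic entry, was the exception of this group, with 1046, 1007 and 1082 in high-ROS and 922, 967 and 919.9 in low-ROS CMP. Its groups did not overlap, by a small amount (log2 fold change 0.16, SE 0.105, limma unadjusted p = 0.165, adjusted p = 0.742).

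The anaphase genes split. Cdc20 (107995), the activator of the APC/C that the checkpoint restrains, had 1150.2, 1167 and 1159.9 in high-ROS and 955, 1089 and 869 in low-ROS CMP. High-ROS arrays were nearly equal and all above the low-ROS ones (log2 fold change 0.26, SE 0.115, limma unadjusted p = 0.0470, adjusted p = 0.637), and its 2 further probe sets had 0.28 and 0.31. Ube2c, the ubiquitin-conjugating enzyme of the APC/C, had 1769, 2270.3 and 1361 in high-ROS and 1862, 2282 and 2277 in low-ROS CMP. Pttg1 (securin), which the APC/C marks for destruction, had 1242, 1394 and 1433 in high-ROS and 1578, 1619 and 1402 in low-ROS CMP. Ube2c and Pttg1 had the most negative fold changes of the members (-0.27, SE 0.164, and -0.17, SE 0.107), their groups overlapped, and all 3 Pttg1 probe sets had negative values. Espl1 (separase), the protease that securin inhibits, had a log2 fold change of 0.16 (SE 0.162).

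Of 9 centromere and kinetochore genes, 7 had a higher mean in high-ROS CMP, and the groups were separate for 1. Cenpf (108000), a large protein of the outer kinetochore, had 806, 696 and 865 in high-ROS and 585, 663 and 581 in low-ROS CMP (log2 fold change 0.36, SE 0.130, limma unadjusted p = 0.0181, adjusted p = 0.573). Its probe sets disagreed: another bright one had 552, 756 and 425 in high-ROS and 650.3, 621 and 613 in low-ROS CMP. Cenpa, the histone H3 variant that marks centromeres, had 449, 570.2 and 529.9 in high-ROS and 325, 433 and 452 in low-ROS CMP. Only high-ROS replicate 1 and low-ROS replicate 3 overlapped (log2 fold change 0.35, SE 0.164). The microtubule-binding Ndc80 complex gave Ndc80 -0.01, Nuf2 0.14, Spc24 0.14 and Spc25 0.03 on the log2 scale, with SE between 0.129 and 0.152. Cenpe, a kinetochore motor, had 0.00 (95% interval -0.27 to 0.28), and the inner kinetochore genes Cenph and Cenpi had -0.17 (SE 0.154) and 0.22 (SE 0.282), Cenpi from signals of 54.41 to 107.9 in high-ROS and 39.65 to 76.58 in low-ROS CMP.

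All 4 cytokinesis genes had positive fold changes, and 2 of them had separate groups. Ect2 (13605), which is needed for the cleavage furrow to form, had 568, 501 and 583 in high-ROS and 357, 434 and 399 in low-ROS CMP. All 3 high-ROS arrays were above the low-ROS ones (log2 fold change 0.46, SE 0.139, limma unadjusted p = 0.00720, adjusted p = 0.530). Anln (anillin, 68743), a scaffold of the contractile ring, had 375, 351 and 334 in high-ROS and 230.3, 303 and 269.6 in low-ROS CMP, without overlap (log2 fold change 0.39, SE 0.157, limma unadjusted p = 0.0312, adjusted p = 0.601). The midzone kinesins Kif23 and Kif20a had 0.03 (SE 0.161) and 0.02 (SE 0.189). Kif20a was 469 in high-ROS replicate 3, against 817 and 763 in the other high-ROS arrays and 611 to 694 in low-ROS CMP.

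Among the 5 spindle genes, Nusap1 (108907), which bundles microtubules, had 1069, 1190.3 and 1236 in high-ROS and 846, 1005 and 1030.0 in low-ROS CMP, without overlap (log2 fold change 0.28, SE 0.120, limma unadjusted p = 0.0407, adjusted p = 0.622). Kif2c, a kinesin that takes microtubules apart, had 504, 369.6 and 387 in high-ROS and 284, 375 and 244 in low-ROS CMP. Low-ROS replicate 2 lay within the high-ROS range (log2 fold change 0.47, SE 0.188, limma unadjusted p = 0.0302, adjusted p = 0.601). Kif11, the motor that pushes spindle poles apart, had 1565, 1681 and 1086 in high-ROS and 1405, 1472 and 1599.8 in low-ROS CMP. Prc1, a midzone bundler, had -0.03 (SE 0.162), and Tpx2, the activator of Aurka, 0.20 (SE 0.159), both with overlap.

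The general markers of dividing cells did not separate the groups. Mki67, the Ki-67 antigen gene, had 5675, 5901 and 5563 in high-ROS and 5491, 5651 and 5677 in low-ROS CMP, a log2 fold change of 0.03 with a 95% interval of -0.12 to 0.18. Top2a, the topoisomerase that untangles chromosomes, had 2129.8, 2411 and 1728 in high-ROS and 1794, 2274 and 2015 in low-ROS CMP, with 0.04 (95% interval -0.26 to 0.33). For both genes the groups overlapped.

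**Figure D2:**
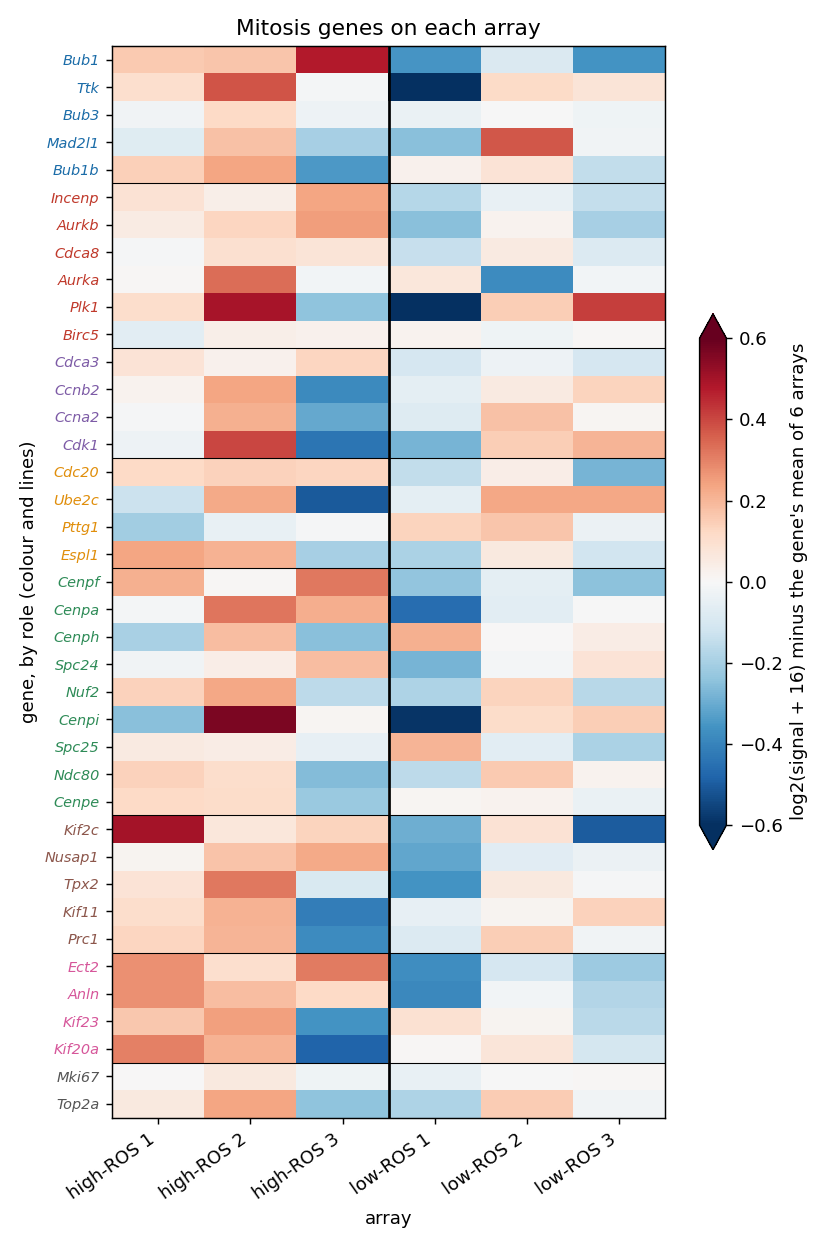
Log2 signal of each mitosis gene on each array, minus the gene's mean of 6 arrays (colour, red above and blue below that mean), with genes as rows by role and high-ROS arrays left of the line. High-ROS replicate 2 is above the gene's mean for 38 of 39 genes, low-ROS replicate 1 for 9, and high-ROS replicate 3 holds both strongly positive genes such as Bub1 and strongly negative ones such as Ube2c.

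Taken over all members, the groups overlapped. The median deviation of the members from their own mean was 0.08, 0.18 and -0.03 on the log2 scale in high-ROS replicates 1 to 3 and -0.16, 0.04 and -0.03 in low-ROS replicates 1 to 3. High-ROS replicate 2 thus stood highest and low-ROS replicate 1 lowest, and high-ROS replicate 3 was below low-ROS replicate 2. High-ROS replicate 2 gave the highest signal of 20 members (51.3%), against 15.2% of all genes, and low-ROS replicate 1 the lowest of 16 (41.0%), against 20.4% of all genes. High-ROS replicate 3 gave the lowest signal of 14 members (35.9%, against 22.5% of all genes) and the highest of 8 (20.5%, against 23.8%).

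The 14 lowest on high-ROS replicate 3 were Cdk1, Ccna2, Ccnb2, Ube2c, Espl1, Bub1b, Cenpe, Cenph, Ndc80, Kif11, Kif20a, Kif23, Prc1 and Top2a, and the 8 highest there were Bub1, Ect2, Incenp, Cenpf, Nusap1, Aurkb, Cdca3 and Spc24. Both sets were picked by their values and are a description. They also depend on the probe set used. Other probe sets of Incenp (436) and Cenpf (425) were lowest on high-ROS replicate 3, and another of Top2a (291) was highest there. The other probe sets of Prc1 (438, lowest) and Aurkb (692, highest) kept their places. Of the 14, 12 had a promoter window, with CHR letters in 10 of them. High-ROS replicate 3 also had the highest Gapdh ratio, 4.53, while its beta-actin ratio of 1.06 was close to those of the other arrays. Without this array 35 of 39 members (89.7%) had a higher mean in high-ROS CMP, against 54.1% of all genes. The median log2 fold change was 0.18, against 0.019 over all genes. The groups did not overlap for 17 members (43.6%), against 21.5% of all genes in that comparison of 2 arrays with 3. With the log2 Gapdh ratio as a covariate the median was 0.25, against 0.009 over all genes. In that fit 35 members were positive, against 51.5% of all genes, and Cdk1 was at 0.46 (limma adjusted p = 0.656). The ratio was highest on high-ROS replicate 3 and differed in part with the group, so these values are not a corrected estimate.

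**Figure D3:**
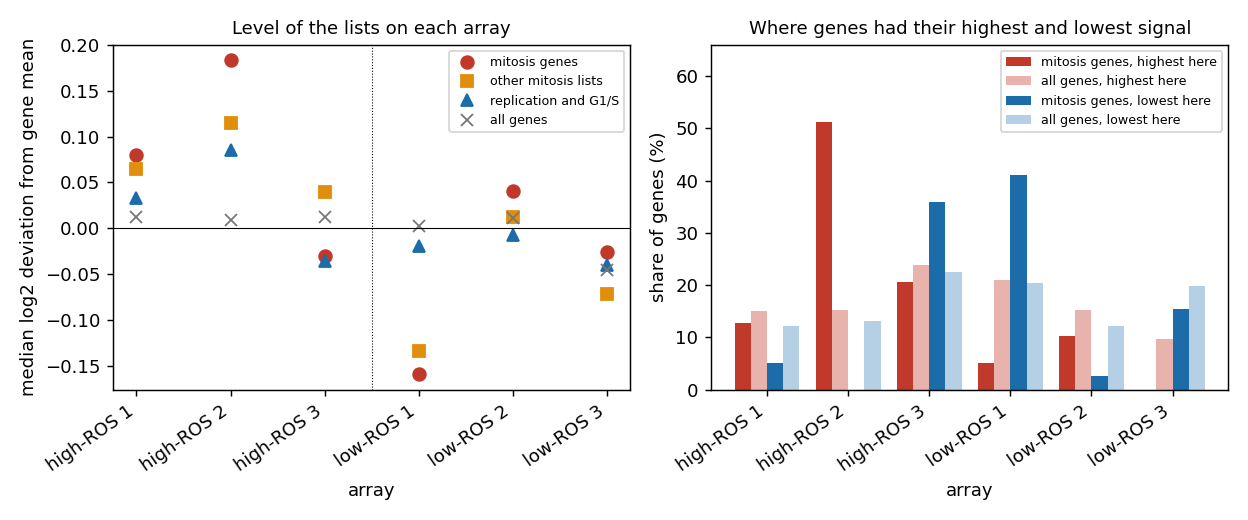
Left, median log2 deviation from the gene mean on each array for the mitosis genes, the other mitosis lists, replication genes and all genes. Right, share of genes (%) with their highest or lowest signal on each array, where the mitosis genes stand out at 51.3% highest on high-ROS replicate 2 and 41.0% lowest on low-ROS replicate 1.

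Probe sets of one gene did not always point one way. Of the 39 members 24 had more than 1 probe set, and in 13 of these all had the same sign. Of 23 further probe sets with a mean signal above 100, 16 had the sign of the one used. Ccna2 was -0.07 on the probe set used and 0.32 (SE 0.152) on the other. Kif11 was -0.07 on the one used, and 0.28 (SE 0.121) and -0.03 (SE 0.167) on its others. For Kif11 the one at 0.28 had 678, 669 and 599 in high-ROS and 525, 540.4 and 530.1 in low-ROS CMP, so its groups did not overlap. Top2a and Cenpe had 0.30 and 0.37 on a second probe set, against 0.04 and 0.00 on the one used. Cdca8 and Tpx2 differed the other way, with -0.35 and -0.13 on a dimmer probe set. For Cdca8 another, bright probe set had 0.00 (SE 0.0864), against 0.11 on the one used.

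**Figure D4:**
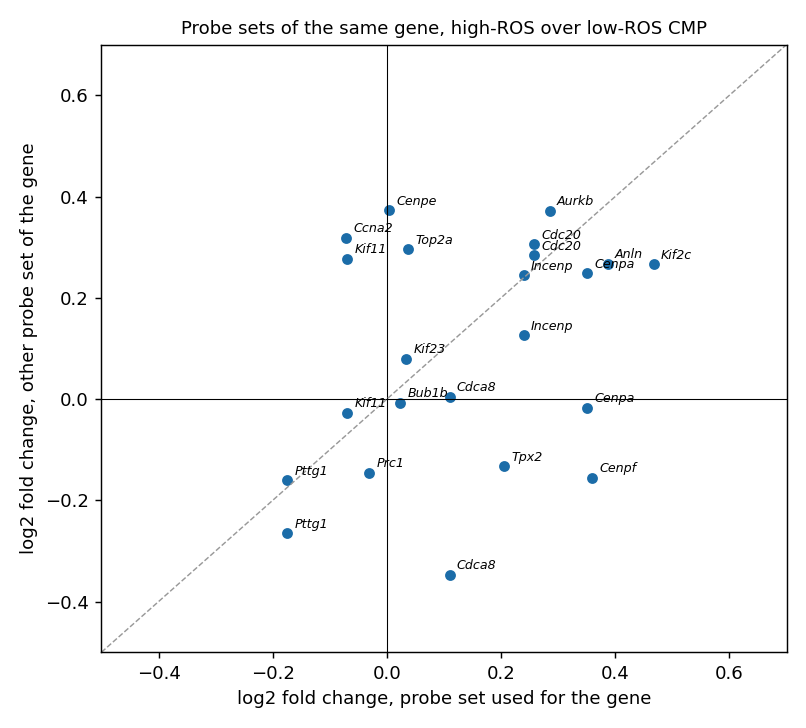
Log2 fold change, high-ROS over low-ROS CMP, of further probe sets with a mean signal above 100 (vertical axis) against that of the probe set used for the same gene (horizontal axis), with the dashed line at equality. Of 23 points, 16 have the same sign on both axes, and probe sets of Cenpf, Cdca8 and Cenpa lie furthest below the line.

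In 5 further lists of mitosis genes, 79 of 108 measured genes had a higher mean in high-ROS CMP, but the lists differed. The share was 24 of 30 for kinetochore and checkpoint genes, 20 of 24 for spindle and cytokinesis genes and 17 of 21 for mitotic entry. It was 8 of 15 (53.3%) for the APC/C and 10 of 18 (55.6%) for condensin and cohesin, near the 54% of all genes. None of the 108 passed with limma after adjustment (0 calls), and an unadjusted p under 0.05 was reached by 16 (14.8%) with a higher mean and 0 with a lower one, against 4.44% and 3.37% of all genes. The 16 became 9 when either high-ROS replicate 1 or low-ROS replicate 1 was left out, while the 808 of all genes became 661 and 677. Their median log2 fold change was 0.14. For 25 of them all high-ROS arrays were above all low-ROS arrays, and for 1 below, against 8.04% and 5.32% of all genes. Of the 25, 9 were kinetochore and checkpoint genes and 10 spindle and cytokinesis genes, 3 belonged to mitotic entry, 1 of 15 (6.67%) to the APC/C and 2 of 18 (11.1%) to condensin and cohesin. By list the median was 0.20 over 30 kinetochore and checkpoint genes, 0.21 over 24 spindle and cytokinesis genes, 0.03 over 15 genes of the APC/C, 0.06 over 18 condensin and cohesin genes, and 0.12 over 21 genes of mitotic entry.

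The kinetochore genes of smallest p were Spdl1, an adaptor that brings dynein to kinetochores, and Sgo2a, a protector of cohesion. Spdl1 had 357, 322 and 426 in high-ROS and 278, 195 and 194 in low-ROS CMP (log2 fold change 0.70, SE 0.186, limma adjusted p = 0.436). Sgo2a had 860.4, 822 and 832 in high-ROS and 607, 674 and 569 in low-ROS CMP (log2 fold change 0.44, SE 0.120, limma adjusted p = 0.442). Among spindle and cytokinesis genes they were the kinesin Kif20b and the microtubule-binding Hmmr. Kif20b had 969, 896 and 871 in high-ROS and 715, 542 and 604 in low-ROS CMP (log2 fold change 0.55, SE 0.132, limma adjusted p = 0.394). Hmmr had 601, 603 and 631 in high-ROS and 374, 469 and 458 in low-ROS CMP (log2 fold change 0.49, SE 0.136, limma adjusted p = 0.456). In all 4 the groups did not overlap.

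In the remaining lists the smallest p belonged to the APC/C subunits Anapc5 (log2 fold change 0.23, SE 0.0958) and Anapc7 (0.35, SE 0.190), the condensin subunit Ncaph2 (0.35, SE 0.137), the cohesin acetyltransferase Esco2 (0.48, SE 0.221), Mastl, the kinase that restrains the phosphatase opposing Cdk1 (0.57, SE 0.222), and the Cdk1 partner Cks1b (0.15, SE 0.0755). Of 24 replication and G1/S genes, which act in the earlier S phase, 17 (70.8%) had a higher mean, against 54% of all genes. An unadjusted p under 0.05 was reached by 0, against 7.81% of all genes, and the median was 0.09. For 3 (12.5%) high-ROS arrays lay wholly above low-ROS arrays and for 0 wholly below, against 8.04% and 5.32% of all genes. Ccne2 (cyclin E2) was at 0.64 (SE 0.294) and Rfc4 at 0.28 (SE 0.139). No difference between lists was tested.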

How the data were processed

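Per the labels' protocols, total RNA of sorted CMP was amplified, labelled with biotin (NuGEN Ovation) and hybridised to one-colour arrays. The authors deposited linear intensity values, 1 for each probe set on each array. The way probes were summarised and arrays scaled is not stated (not given in the sources used here), and precision is limited by the number of arrays. All 6 value columns carry a sample's own identifier. Of 45101 probe sets, 34945 had 1 gene symbol in the platform's annotation, 932 several and 9160 none, besides 64 controls, and 34741 of those with 1 were found in the RefSeq gene table.

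A pseudocount of 16 was added before log2, with no further normalization, so fold changes of dim genes are understated. Groups were compared with limma 3.58.1 in R 4.3.3 (lmFit, eBayes with a mean-variance trend, 2-sided, 11.1 total degrees of freedom), adjusted over 18193 genes, threshold 0.05. The test was checked on simulated data with 200 changed genes. Those changes were larger than any fold change of the members, so the check does not bear on differences of their size. A permutation test was not used, since 3 against 3 arrays allow no exact p under 0.1. Values are deposited signals, mean ± SD with n = 3. Figures were drawn with matplotlib 3.10.9 in Python 3.11.15.

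The members and lists were chosen with earlier results of these data known. All members are accounted for by name, the 12 of smallest unadjusted p and Cdk1, Mki67, Top2a, Plk1 and Aurkb with every array; of each other list the 2 genes of smallest unadjusted p are named, and other per-array values were added after the data were seen. Alternatives were pseudocounts of 1 and 64, genes above the median level, quantile normalization, equal trimmed means (2% of each tail trimmed), no trend, blocking on replicate number, weighting arrays, averaging all probe sets of each gene, testing each probe set, the Gapdh ratio as a covariate, an adjusted p under 0.1 and leaving out each array.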

Additional observations from a re-analysis of the deposited data

How the results depend on the processing

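In each alternative 0 mitosis genes passed in either direction (limma, adjusted p under 0.05, and also under 0.1), and Bub1 kept a positive log2 fold change, between 0.38 with the Gapdh covariate and 0.63 with the mean of its probe sets. With that covariate its limma unadjusted p was 0.0588, against 0.00433 as reported, and Cdk1 had the smallest adjusted p of the members (0.656). The count of members higher at an unadjusted p under 0.05, 9 as reported, was 5 with no mean-variance trend and 5 with the mean of all probe sets of a gene. Over all 18193 genes the same count was 808, 829 and 777 in these fits. Leaving out 1 array gave 3 (without low-ROS replicate 1) to 8 (without low-ROS replicate 2) higher. The count was 4 if low-ROS replicate 3 and 5 if high-ROS replicate 1 or 2 was dropped. Members lower numbered 0 to 1, the 1 without high-ROS replicate 2. Over all genes leaving out 1 array gave 549 to 950 higher and 456 to 936 lower. The count of members with separate groups ranged from 11 to 17 when 1 array was left out (28.2% to 43.6%), while the share of all genes was then 21.5% to 26.8%. The 17 came without high-ROS replicate 3; the share was 30.8% against 26.8% of all genes without high-ROS replicate 2 and 28.2% against 24.0% without low-ROS replicate 1. The members' median ranged from 0.02 without high-ROS replicate 2 (0.025 over all genes) to 0.18 without high-ROS replicate 3 (0.019 over all genes). It was 0.25 with the Gapdh covariate, which itself differed in part with the group. Sign changes were seen in 9 members with that covariate and in 4 to 7 when 1 array was left out. The cause of these shifts was not tested.

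In the other mitosis lists, 9 (without high-ROS replicate 1 or low-ROS replicate 1) to 20 (without high-ROS replicate 2) genes had a higher mean with an unadjusted p under 0.05, and 0 to 1 a lower one, when 1 array was left out. Over all 18193 genes these counts were 549 to 950 and 456 to 936. Medians of the lists then ranged from 0.167 to 0.247 for the other kinetochore and checkpoint genes and from 0.138 to 0.233 for the other spindle and cytokinesis genes. The range was -0.063 to 0.074 for the APC/C and 0.033 to 0.135 for condensin and cohesin. It was 0.088 to 0.16 for mitotic entry and 0.027 to 0.0793 for replication and G1/S. Condensin and cohesin had 0.124 with the mean of all probe sets and 0.130 with the Gapdh covariate, against 0.06 as reported. Mitotic entry had 0.17 with array weights, the other kinetochore genes 0.30 with the Gapdh covariate, and with the mean of all probe sets they had 0.11 and replication and G1/S 0.031. Same-numbered arrays of the groups correlated at 0.119, 0.0966 and 0.00275 in their deviations. The arrays of replicates 1 and 2 correlated best with their own number, and those of replicate 3 did not. Whether equal numbers mark pairs was thus not settled, and the main fit left the arrays unpaired. With the replicate block an unadjusted p under 0.05 went with a higher mean in 10 members and a lower one in 0. The counts were 18 and 1 in the other lists, and 850 and 763 over all 18193 genes. Over all genes, where 3 passed with a higher and 7 with a lower mean, array weights gave 13 and 17, the replicate block 0 and 4, and no mean-variance trend 0 and 0; leaving out 1 array gave 0 and between 1 and 6.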
